A study of Mus musculus with 86 samples.

Results

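Heterozygous mouse testes at postnatal day 18 (P18) were compared with heterozygous testes at postnatal day 14 (P14) by poly(A) RNA sequencing of whole testes. The 5 libraries, 3 at P18 and 2 at P14, were chosen by age and genotype from 86 samples of a study of Btbd18, which encodes a BTB-domain protein of the germ cell nucleus. All 5 came from C57BL/6 (B6) X 129/SvJ hybrid mice and carried 1 mutant allele of Btbd18, so neither age is wild type. Homozygous knockout testes of the same ages, 3 libraries at P18 and 2 at P14, were used in one comparison, and heterozygous testes at P10 and P28 (3 and 2 libraries) were set beside the values as earlier and later points. Each library gave a count for 24276 features, which are genes and 214 piRNA loci.

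The first wave of spermatogenesis after birth runs nearly in step through the whole testis, so that the age of a young male sets the most advanced germ cell it holds. Spermatogonia enter meiosis, pass through the long pachytene stage in which homologous chromosomes are fully synapsed and the X and Y chromosomes are silenced, divide, and become haploid round spermatids that later elongate. Pachytene cells already make much of the RNA for the sperm tail and the acrosome, the secretory vesicle over the sperm nucleus, and also the long precursors of pachytene piRNAs, small RNAs bound by PIWI proteins. The comparison asks which of these programmes had appeared in the heterozygous testis by P18 and were absent or low at P14.

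Depth was 6.87, 8.01 and 8.89 M counts in the P18 libraries, against 10.7 and 10.1 M in the P14 libraries. Levels are CPM, the counts of a feature scaled to library size with TMM, and are not divided by gene length. A feature is said to have risen or fallen where edgeR's quasi-likelihood test, with Benjamini-Hochberg adjustment over all 16334 tested features, gave an adjusted p below 0.05. On that rule 4936 features rose (30.2%) and 4061 fell (24.9%), with a median log2 fold change of 1.15 among those that rose and -0.55 among those that fell. Beyond 2-fold (edgeR's glmTreat), 1843 rose (11.3%) and 41 fell (0.251%). All tested features had a median of 0.01. With library totals in place of TMM the median of all tested features moved by -0.24 on the log2 scale, and 3793 features rose and 6493 fell, so that rises made up 36.9% of the calls, against 54.9% with TMM. Calls on changes of about that size depend on the scaling. As these are whole testes, fewer cells of a type and less RNA per cell cannot be told apart.

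Btbd18 itself had 16.1, 12.5 and 12.4 CPM at P18, against 18.4 and 18.2 CPM at P14. It fell by 0.43 on the log2 scale (adjusted p = 0.0266), a call kept in 6 of 12 alternative fits. Knockout testes had 4.22, 2.63 and 3.88 CPM at P18 and 2.06 and 2.1 CPM at P14, below every heterozygous library, so the genotype labels held for these 10 libraries.

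P18 library 3 stood apart from the other P18 libraries. It had 387 features over 2-fold above the mean of the other P18 libraries (with 0.5 CPM added), against 80 for library 1 and 36 for library 2. Beside those, summed over 12 markers of elongating spermatids, the P18 libraries had 24, 21.2 and 62.7 CPM, against 6.85 and 9.40 CPM at P14. Library 3 was thus the highest by far, and yet the P18 sum was 0.30% of that at P28. Library 1 was in turn the highest of the P18 libraries for 35 of 41 axoneme genes. The labels do not say that libraries came from separate animals, and p-values reflect only how far these samples vary. In the other direction, 332 features in library 1, 242 in library 2 and 81 in library 3 lay over 2-fold below the mean of the other 2 libraries.

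Genes of the axoneme, the microtubule core of the sperm tail, rose without exception: 41 of 41 tested members of 45 listed (30.2% of all tested features rose), and 38 of them beyond 2-fold (11.3% of all). Their median log2 fold change was 3.25, against 0.01 over all tested features. The axonemal dynein heavy chains are the motors that bend the tail. Dnah8 had 2376, 1979 and 1549 CPM at P18, against 226 and 168 CPM at P14 (log2 fold change 3.32 ± 0.23 SE, adjusted p = 2.50e-10). Dnah6 had 161, 122 and 128 CPM at P18, against 3.60 and 2.81 CPM at P14. Dnah17 had 711, 588 and 612 CPM at P18, against 20.3 and 16.9 CPM at P14. In all 3 genes every P18 library lay far above both P14 libraries, and library 1 was the highest.

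The same held for the other parts of the axoneme. Rsph6a, a radial spoke head protein, had 141, 114 and 139 CPM at P18, against 2.05 and 2.37 CPM at P14 (log2 fold change 5.88 ± 0.27, adjusted p = 1.66e-12). Dnaic2, a dynein intermediate chain, had 43.7, 30.2 and 48.5 CPM at P18, against 0.514 and 0.966 CPM at P14 (5.76 ± 0.53, adjusted p = 1.56e-08). These were among the largest log2 fold changes of the list and left no overlap between the ages. Tekt3 and Tekt4 encode tektins, filament proteins in the wall of the doublet microtubules. Tekt4 had 44.8, 44.7 and 63.0 CPM at P18, against 2.23 and 1.41 CPM at P14 (4.80 ± 0.35), and Tekt3 rose by 5.66 ± 0.31. Hydin, a protein of the central pair apparatus, had 177, 145 and 143 CPM at P18, against 10.7 and 8.61 CPM at P14 (4.00 ± 0.19, adjusted p = 2.15e-12). The smallest rises were those of Dnal1, a dynein light chain (0.56 ± 0.10), and of Gas8, a subunit of the nexin-dynein regulatory complex (0.84 ± 0.11). Both were already at 20.6 to 30.1 CPM in the P14 libraries.

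The plot of gene lists runs from the axoneme at the top to the somatic cell types at the bottom. Its rows were ordered by hand and are not sorted by value.

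**Figure D1:**
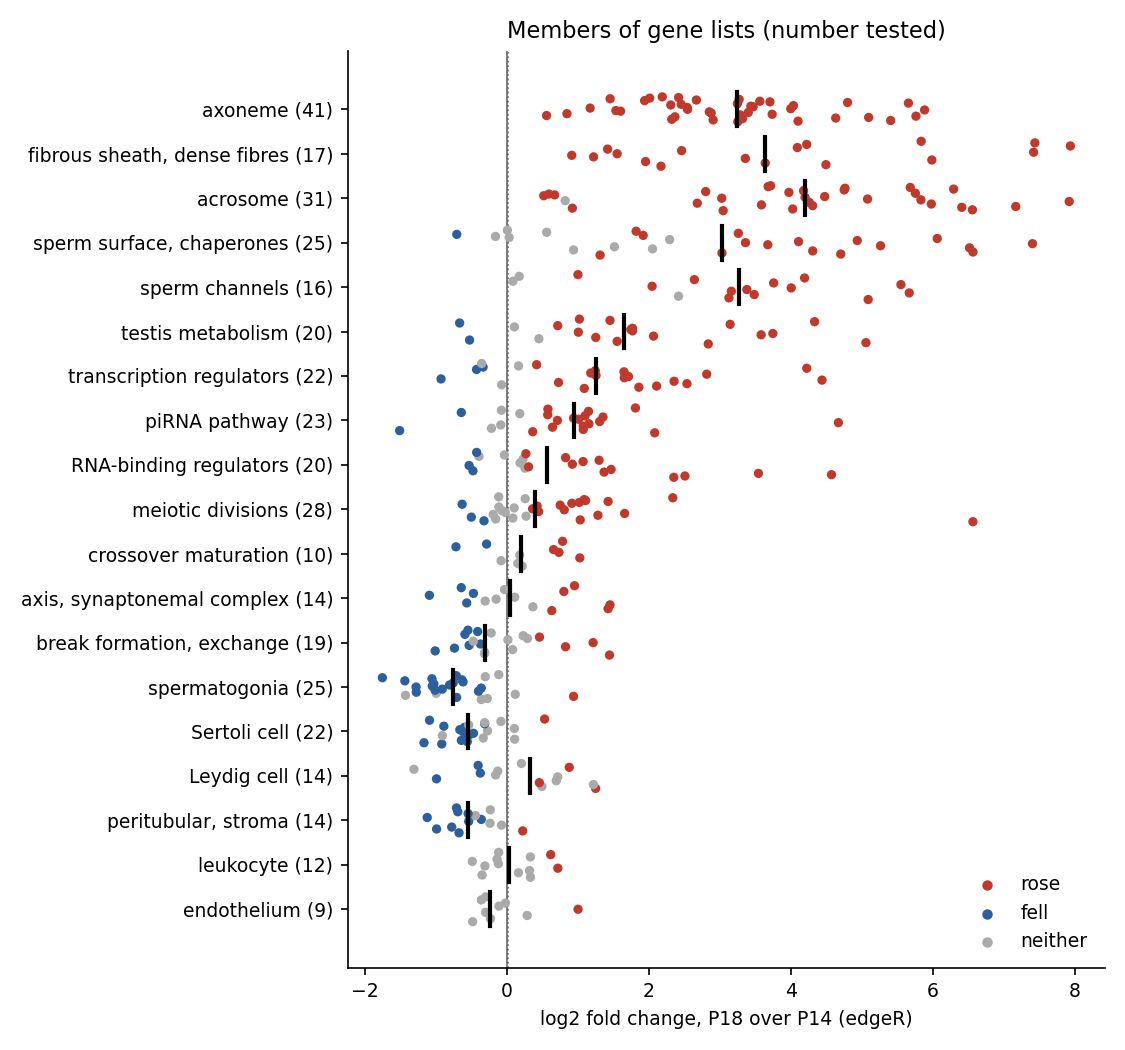
Each point is 1 tested gene of a list, placed by its log2 fold change, P18 over P14 (edgeR), and coloured by whether it rose, fell or neither (adjusted p below 0.05). Points are spread within a row for sight only, the black bar is the median of the list, the solid line is 0 and the dotted line the median of all tested features (0.01). The axoneme, fibrous sheath, acrosome, sperm surface and channel lists have medians above 3, and those of the spermatogonial, Sertoli cell and peritubular lists lie below -0.5. Fitted values of genes with 0 counts at P14 are no bound and set the far right of several rows.

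Promoters of 4 axoneme genes that rose are shown as examples of windows that hold the first motif named below. Its presence in all 4 is therefore no result. Each is the RefSeq window of 300 bases (build GRCm38.p6, 250 bases before the gene's start to 50 after it, in the direction of transcription), with 2 motifs in capitals on either strand: GTTGCC, whose reverse complement is GGCAAC, a half-site of the X-box bound by RFX factors, and TAACNG, whose reverse complement is CNGTTA, the core of the site bound by MYB factors.
Dnaic2, chr11:114727169-114727468, plus strand: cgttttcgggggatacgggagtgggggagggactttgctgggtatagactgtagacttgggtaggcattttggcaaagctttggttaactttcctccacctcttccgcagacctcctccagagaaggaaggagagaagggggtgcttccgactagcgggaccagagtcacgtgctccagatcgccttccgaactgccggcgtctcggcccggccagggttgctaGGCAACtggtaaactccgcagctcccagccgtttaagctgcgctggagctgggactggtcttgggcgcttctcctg
Tekt4, chr17:25471340-25471639, plus strand: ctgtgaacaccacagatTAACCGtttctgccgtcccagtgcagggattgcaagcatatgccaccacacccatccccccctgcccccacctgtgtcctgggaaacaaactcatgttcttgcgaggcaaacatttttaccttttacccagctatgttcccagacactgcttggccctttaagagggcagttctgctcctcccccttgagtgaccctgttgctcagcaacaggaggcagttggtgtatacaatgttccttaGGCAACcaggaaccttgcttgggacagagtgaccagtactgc
Dnah10, chr5:124724835-124725134, plus strand: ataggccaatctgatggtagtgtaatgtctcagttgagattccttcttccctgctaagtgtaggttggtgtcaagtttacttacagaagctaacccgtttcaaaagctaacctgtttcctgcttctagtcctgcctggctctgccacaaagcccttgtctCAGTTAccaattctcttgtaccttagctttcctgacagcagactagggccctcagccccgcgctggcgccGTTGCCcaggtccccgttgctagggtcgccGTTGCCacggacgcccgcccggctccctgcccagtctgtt
Hydin, chr8:110266727-110267026, plus strand: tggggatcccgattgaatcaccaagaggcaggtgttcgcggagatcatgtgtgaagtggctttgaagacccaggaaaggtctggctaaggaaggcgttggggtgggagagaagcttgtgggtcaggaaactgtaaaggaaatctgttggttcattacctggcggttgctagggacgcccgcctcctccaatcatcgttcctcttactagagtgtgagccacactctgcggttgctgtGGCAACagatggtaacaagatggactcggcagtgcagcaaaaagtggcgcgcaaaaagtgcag
Dnah10, another dynein heavy chain, had 85.5, 70.9 and 80.3 CPM at P18, against 2.83 and 3.51 CPM at P14. The first GTTGCC match of the window began 26 bases before the start site in Dnaic2, 20 before it in Dnah10 and 13 before it in Hydin, and 8 bases after it in Tekt4.

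Of the 41 axoneme genes 35 had a promoter window, of which 15 (42.9%) held GTTGCC and 16 (45.7%) held TAACNG. Among all 27025 windows of the same length 12.7% held GTTGCC and 23.2% held TAACNG, and among the 11971 tested features with a window 13.4% and 19.7%. Over the tested features with a window, GTTGCC was held by 16.5% of those that rose, 19.9% of those that rose beyond 2-fold and 11.0% of those that fell. TAACNG was held by 23.0%, 27.3% and 17.1% in the same order. Windows of piRNA pathway genes held TAACNG in 7 of 19 cases (36.8%). Those of acrosome genes did in 9 of 28 (32.1%) and those of Sertoli cell genes in 1 of 14 (7.14%). GTTGCC stood in 3 of 19 (15.8%), 5 of 28 (17.9%) and 0 of 14 in the same order. GGGCGG, the GC box, went the other way: it stood in 43.1% of windows of features that rose beyond 2-fold and in 71.1% of those that fell, against 59.8% of all tested features with a window and 35.9% of all windows. TGACGTCA, the full cyclic AMP response element that CREM can bind and which reads the same on both strands, was held by 2.44% of the windows of features that rose beyond 2-fold, 3.11% of those that fell, 3.01% of all tested features with a window and 1.88% of all windows. The other motifs searched were GTTGCCNNG, which contains the X-box half-site, and AACTGNC, a longer MYB motif that can overlap the core, then TGACGTGA and TTACGTCA, variants of the cyclic AMP element, then the TATAAA box, and last the CCAAT box, each on both strands, 10 in all and chosen with these results known. AACTGNC stood in 9 of 35 axoneme windows (25.7%), 4 of 19 piRNA pathway windows (21.1%) and 0 of 28 acrosome windows. Of all tested features with a window 11.9% held it. A match is a run of letters and no measured site of binding.

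The regulators that bind such motifs, or act beside them, were measured in the same libraries. Of 22 transcription regulators of spermatocytes and spermatids 16 rose (72.7%) and 3 fell (13.6%), with a median log2 fold change of 1.25. Of all tested features 30.2% rose and 24.9% fell. Rfx2, a factor that in mice drives ciliary and tail genes in spermatids, had 411, 350 and 341 CPM at P18, against 90.5 and 79.7 CPM at P14 (2.11 ± 0.13, adjusted p = 5.30e-11). Rfx4 rose by 2.54 ± 0.19. Mybl1, which encodes the MYB factor of pachytene spermatocytes, had 284, 239 and 212 CPM at P18, against 119 and 111 CPM at P14 (1.09 ± 0.17). Ovol2, a zinc finger factor, had 46.3, 33.9 and 42.3 CPM at P18, against 1.71 and 2.02 CPM at P14, the largest log2 fold change of the list among genes with over 3 counts at P14 (4.44 ± 0.32). Its relative Ovol1 rose by 2.35 ± 0.17 and Gtf2a1l, a germ cell subunit of the TFIIA family, by 2.81 ± 0.18. Crem, a regulator of spermatid genes, had 153, 130 and 108 CPM at P18, against 46.1 and 36.7 CPM at P14 (1.65 ± 0.16). The falls were those of the X-linked Taf7l (log2 fold change -0.93 ± 0.08), of Rnf4 (-0.34 ± 0.08) and of Btbd18.

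Acrosome genes rose too, in 2 kinds. Of 31 tested, 30 rose, 23 of them beyond 2-fold, and the median log2 fold change was 4.20, or 3.68 with the 7 members at 0 counts in both P14 libraries set at their lower bound. The first kind was already well expressed at P18. Crisp2, a cysteine-rich secretory protein of the acrosome and tail, had 1369, 1111 and 929 CPM at P18, against 49.1 and 35.2 CPM at P14 (4.75 ± 0.31, adjusted p = 8.69e-11). Spata16, which is needed for acrosome assembly, had 271, 202 and 198 CPM at P18, against 12.1 and 7.91 CPM at P14. Acr, the protease acrosin, had 91.8, 78.9 and 85.2 CPM at P18, against 12.5 and 8.08 CPM at P14. In each the ages were far apart, and the P18 libraries lay within 1.5-fold of one another.

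The second kind was just detectable, and mostly in P18 library 3. Spam1, the sperm hyaluronidase, had 1.15, 1.32 and 7.23 CPM at P18 and 0 counts in both P14 libraries, at least 27.3-fold higher at P18 with a floor of 3 counts over the P14 group, or at least 9.55-fold without library 3. Acrv1, an acrosomal matrix protein, had 1.64, 1.19 and 12.2 CPM at P18, against 0.0856 and 0 CPM at P14, where it had 1 count in all. Zp3r had 1.81, 1.58 and 6.88 CPM at P18, against 0 and 0.0879 CPM. Library 3 was the highest in all 3, and it was the highest P18 library for 17 of 31 acrosome genes. Without library 3, 27 acrosome genes rose in place of 30, and with only the libraries compared 20 rose. Izumo1, the sperm protein that binds the egg, had 0.657, 0.395 and 2.22 CPM at P18, against 0.257 and 1.05 CPM at P14, and was the member that did not pass (adjusted p = 0.326).

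The tail sheath list, which holds the fibrous sheath, the outer dense fibres and the mitochondrial sheath, gave the same 2 kinds. All 17 tested members rose, 14 beyond 2-fold (median log2 fold change 3.64, or 2.79 with 5 members at their bound). Without P18 library 3, 15 rose and the median was 2.53, and 11 rose when only the 5 libraries entered the fit. Odf2, an outer dense fibre protein also found at centrosomes, had 626, 521 and 579 CPM at P18, against 156 and 141 CPM at P14 (1.95 ± 0.13). Ropn1l and Tcp11 rose by 2.46 ± 0.20 and 4.09 ± 0.21. Akap4, the X-linked scaffold of the fibrous sheath, had 3.12, 0.922 and 13.3 CPM at P18, against 0.257 and 0.264 CPM at P14 (4.49 ± 0.91, adjusted p = 4.12e-04), and its P18 mean of 5.78 ± 6.60 CPM (SD, n = 3) was 0.355% of that at P28. Smcp, a mitochondrial sheath protein, had 0.657, 1.32 and 7.58 CPM at P18 and 0 counts at P14, at least 27.3-fold higher, or at least 7.87-fold without library 3. As sums, the tail sheath list reached 13.6% of its P28 level at P18, the acrosome list 30.5% and the axoneme list 55.4%.

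The plot of single genes sets an even rise of this kind beside rises that rest on P18 library 3.

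**Figure D2:**
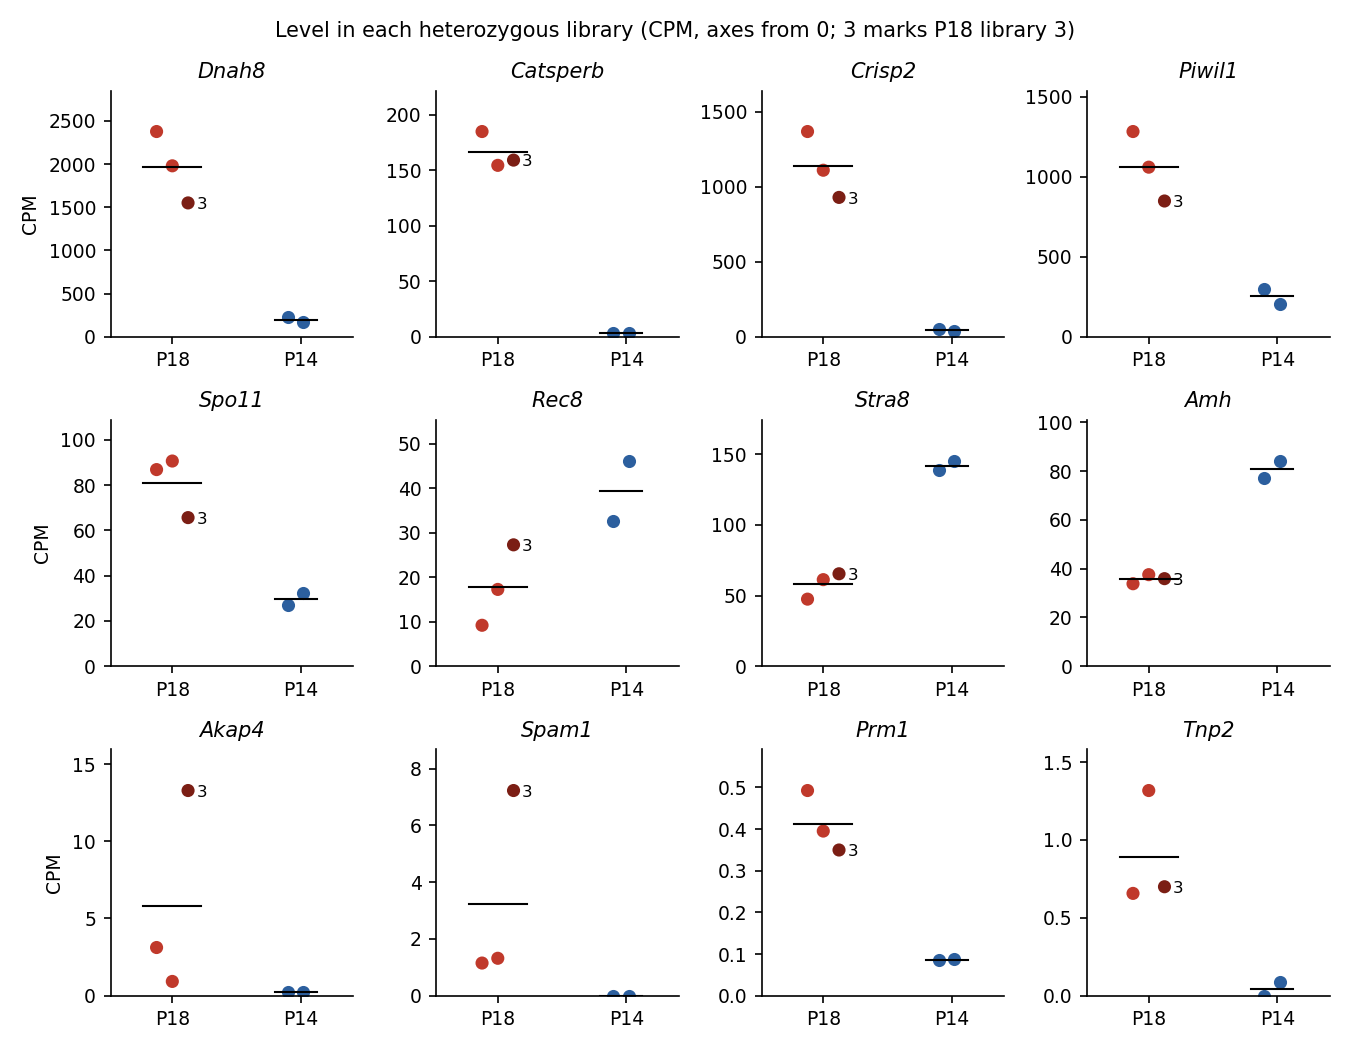
Level in CPM (vertical axes, from 0, each with its own scale) of 12 genes in the 3 P18 and the 2 P14 heterozygous libraries. Points are libraries, short lines are group means and the digit 3 marks P18 library 3. Dnah8, Catsperb, Crisp2, Piwil1 and Spo11 are high in every P18 library, Rec8, Stra8 and Amh are lower at P18, and Akap4 and Spam1 reach 13.3 and 7.23 CPM in library 3 alone.

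Sperm surface proteins and the endoplasmic reticulum chaperones that fold them rose in 16 of 25 cases and fell in 1, with 12 beyond 2-fold and a median log2 fold change of 3.03 (2.86 with 3 members at their bound). P18 library 3 was the highest for 15 of the 25, and without it 13 rose and the median was 1.73, while 12 rose with only the libraries compared. The ADAM proteins, a family of membrane proteases and adhesion proteins, include several that sperm need to pass into the oviduct and to bind the egg coat in mice. Adam3 had 410, 324 and 343 CPM at P18, against 3.60 and 3.95 CPM at P14. Adam18 had 147, 117 and 99.2 CPM at P18, against 1.28 and 1.32 CPM at P14 (6.52 ± 0.31, adjusted p = 8.15e-12). Adam5 had 1267, 1012 and 807 CPM at P18, against 61.2 and 42.5 CPM at P14 (4.31 ± 0.29). All 3 were nearly absent at P10, where their means were 0 to 0.699 CPM. Clgn, the calmegin chaperone, rose by 1.92 ± 0.16, whereas Calr3, the testis calreticulin, had 3.61, 4.61 and 3.03 CPM at P18, against 5.57 and 6.68 CPM at P14 (-0.71 ± 0.24, adjusted p = 0.0165, or 0.0825 without P18 library 3). Tex101, a surface glycoprotein, had 883, 828 and 676 CPM at P18, against 805 and 754 CPM at P14 (0.03 ± 0.17, adjusted p = 0.90). Adam6a and Adam6b are near-identical and their counts are uncertain.

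Ion channels and transporters of sperm rose in 13 of 16 cases with none falling (median 3.27), and in 11 without P18 library 3. The CatSper calcium channel is assembled from several subunits, and its genes were not equally far advanced. Catsperb had 185, 155 and 159 CPM at P18, against 3.25 CPM in each P14 library (5.67 ± 0.25, adjusted p = 1.82e-11), and Catsperd rose by 4.00 ± 0.22. The pore subunit Catsper1 had 0.821, 0.395 and 4.20 CPM at P18, against 0 and 0.0879 CPM at P14. The P18 mean of Catsperb was 101% of its P28 mean, and that of Catsper1 was 1.26%. Slc9c1, the sperm sodium-proton exchanger, had 202, 156 and 158 CPM at P18, against 3.42 and 3.87 CPM at P14 (5.55 ± 0.28). Adcy10, the soluble adenylyl cyclase, rose by 4.19 ± 0.20. The near-identical Catsperg1 and Catsperg2 are uncertain.

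Testis isoforms of energy metabolism rose in 16 of 20 cases (80%, against 30.2% of all tested features) and fell in 2 (10%, against 24.9%). Their median was 1.65. Slc2a3, a glucose transporter, gained more CPM than any other called feature, with 3042, 2370 and 2072 CPM at P18, against 311 and 254 CPM at P14 (3.14 ± 0.20). Ldhc, the germ cell lactate dehydrogenase, had 1953, 1627 and 1393 CPM at P18, against 266 and 199 CPM at P14 (2.83 ± 0.22). Pgam2, a phosphoglycerate mutase, rose by 4.33 ± 0.27. Gapdhs, the sperm form of the glycolytic dehydrogenase, was still low, with 6.40, 6.85 and 11.8 CPM at P18, against 2.14 and 3.69 CPM at P14, and its P18 mean was 0.895% of that at P28. Slc25a31, the germ cell ADP/ATP carrier, had 286, 259 and 209 CPM at P18, against 245 and 223 CPM at P14 (0.10 ± 0.14, adjusted p = 0.559). Aldoart1, a testis aldolase, had 11.0, 10.8 and 13.2 CPM at P18, against 16.1 and 17.7 CPM at P14 (-0.53 ± 0.16, adjusted p = 9.74e-03).

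Signalling enzymes and chromatin proteins of the later stages gave a mixed picture. Of 15 testis kinases, phosphatases and proteasome subunits 10 rose (66.7%, against 30.2% of all tested features) and 3 fell (20%, against 24.9%). Their median was 1.05, and 7 rose without P18 library 3. Ppp3r2, the testis regulatory subunit of calcineurin, had 387, 297 and 332 CPM at P18, against 8.73 and 9.22 CPM at P14 (5.23 ± 0.24). The spermatid kinase Tssk1 had 7.88, 7.38 and 15.9 CPM at P18, against 1.28 and 0.966 CPM (3.22 ± 0.40). Camk4 fell by 1.45 ± 0.23 and Prkar2a, a regulatory subunit of protein kinase A, by 1.06 ± 0.11 on the log2 scale. Of 16 testis histone variants and sperm chromatin proteins 5 rose (31.2%, against 30.2% of all tested features) and 2 fell (12.5%, against 24.9%), so that the share that rose was near that of all features. The median was 1.31, or 0.63 with members at their bound and 0.54 without P18 library 3. Psme4, the proteasome activator that acts on acetylated histones, rose by 1.23 ± 0.10, and Kdm3a, a histone demethylase, by 0.93 ± 0.12. The protamines that finally pack sperm DNA were at the edge of detection: Prm1 had 0.493, 0.395 and 0.350 CPM at P18, against 0.0856 and 0.0879 CPM at P14 (adjusted p = 0.0805), and its P28 mean was 1105 CPM. H2afx, the histone variant that marks the silenced X and Y, fell by 0.46 ± 0.10 on the log2 scale.

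Genes of meiosis itself changed less, and in both directions. In double-strand break formation and strand exchange 4 of 19 rose (21.1%, against 30.2% of all tested features) and 7 fell (36.8%, against 24.9%). Their median log2 fold change was -0.31, and with library totals 3 rose and 11 fell. Spo11, which cuts the DNA, had 86.8, 90.6 and 65.6 CPM at P18, against 27.2 and 32.2 CPM at P14 (1.44 ± 0.19, adjusted p = 2.92e-06). Psmc3ip, the HOP2 partner of DMC1 in strand exchange, rose by 1.21 ± 0.16. Dmc1, the meiotic recombinase, had 48.3, 49.8 and 65.6 CPM at P18, against 77.1 and 81.8 CPM at P14 (-0.54 ± 0.17, adjusted p = 9.59e-03). Mei4, which with its partners promotes break formation, had 3.28, 3.42 and 4.20 CPM at P18, against 7.11 and 7.73 CPM at P14 (-1.01 ± 0.25). Zcwpw1 fell by 0.59 ± 0.10 on the log2 scale, and Prdm9, which places the breaks, had 19.0, 23.3 and 29.4 CPM at P18, against 29.5 and 30.7 CPM at P14 (adjusted p = 0.134).

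The chromosome axis and the synaptonemal complex that joins homologues gave 5 rises and 4 falls among 14 genes. These shares, 35.7% and 28.6%, lie near the 30.2% and 24.9% of all tested features. Their median log2 fold change was 0.04 with TMM and turned to -0.22 with library totals and -0.14 with upper-quartile scaling. Sycp2, an axis protein, had 1362, 1243 and 943 CPM at P18, against 465 and 416 CPM at P14 (1.42 ± 0.17, adjusted p = 8.81e-07). Syce1, of the central element, had 270, 227 and 208 CPM at P18, against 90.7 and 81.0 CPM at P14 (1.45 ± 0.14). Syce2, of the same central element, fell by 0.57 ± 0.09 on the log2 scale. Rec8, the meiotic kleisin of cohesin, had 9.19, 17.3 and 27.3 CPM at P18, against 32.5 and 46.1 CPM at P14 (-1.10 ± 0.27, adjusted p = 1.89e-03). Its 3 P18 libraries differ almost 3-fold among themselves but lie below both P14 libraries. Crossover genes rose in 4 and fell in 2 of 10 cases (median 0.20 with TMM, -0.06 with library totals), against 30.2% and 24.9% of all tested features, and these shares of 10 genes lie near those of all features. Mlh3, an endonuclease subunit of the crossover pathway, had 171, 143 and 107 CPM at P18, against 74.7 and 63.0 CPM at P14, and the X-linked Tex11 had 96.4, 109 and 104 CPM at P18, against 168 and 173 CPM at P14 (-0.72 ± 0.09).

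Of 28 genes for the entry into and passage through the meiotic divisions 15 rose (53.6%) and 3 fell (10.7%), with a median of 0.39. Of all tested features 30.2% rose and 24.9% fell. With library totals 12 of the 28 rose and 8 fell, while 3793 of all 16334 tested features rose and 6493 fell. Ccna1, the germ cell cyclin needed to leave prophase in males, had 113, 90.4 and 109 CPM at P18, against 0.599 and 1.58 CPM at P14 (6.57 ± 0.44, adjusted p = 1.31e-10). The next largest rises were far smaller. Fbxo43, an inhibitor of the anaphase-promoting complex, had 66.8, 50.8 and 46.2 CPM at P18, against 10.1 and 11.4 CPM at P14 (2.34 ± 0.20). Hspa2, the chaperone of the CDK1 complex in spermatocytes, rose by 1.42 ± 0.12 and Aurka by 1.28 ± 0.13. The mitotic cyclin Ccnb1 had 15.4, 17.3 and 16.2 CPM at P18, against 21.1 and 19.9 CPM at P14 (-0.33 ± 0.11, adjusted p = 0.0190, called in 9 of 12 alternative fits), and Sgol1, which guards centromeric cohesion, fell by 0.63 ± 0.12 on the log2 scale.

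Genes of RNA regulation rose more often than they fell. Among 20 RNA-binding and translational regulators 12 rose (60%, against 30.2% of all tested features) and 3 fell (15%, against 24.9%). Their median log2 fold change was 0.56. With library totals 10 rose and 5 fell, and the median was 0.31. Pabpc2, a testis poly(A)-binding protein, had 549, 418 and 472 CPM at P18, against 21.9 and 18.4 CPM at P14 (4.57 ± 0.24). Papolb, the cytoplasmic testis poly(A) polymerase, had 352, 284 and 289 CPM at P18, against 30.6 and 22.2 CPM at P14 (3.54 ± 0.21). Ybx2 and Ybx3, Y-box proteins that hold stored mRNA, rose by 2.35 ± 0.17 and 2.51 ± 0.15. Dazl, which acts from the germ cell precursor stage on, had 796, 814 and 809 CPM at P18, against 1158 and 1093 CPM at P14 (-0.48 ± 0.07, adjusted p = 1.41e-05).

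The piRNA pathway rose in 17 of 23 genes (73.9%, against 30.2% of all tested features) and fell in 2 (8.7%, against 24.9%). The median log2 fold change was 0.94. Tdrd6, a tudor protein of the chromatoid body, had 968, 690 and 759 CPM at P18, against 35.5 and 27.7 CPM at P14. Piwil1, the PIWI protein that binds pachytene piRNAs, had 1282, 1059 and 848 CPM at P18, against 295 and 207 CPM at P14 (2.08 ± 0.18, adjusted p = 4.31e-09). Piwil2, which acts in both embryonic and pachytene stages, had 979, 840 and 655 CPM at P18, against 692 and 592 CPM at P14 (0.36 ± 0.14, adjusted p = 0.0348, called in 6 of 12 alternative fits). Library 3 of P18 lay within the P14 range for Piwil2 alone among these. Piwil4, the nuclear PIWI protein of fetal germ cells, had 2.46, 1.45 and 4.08 CPM at P18, against 8.65 and 6.94 CPM at P14 (-1.51 ± 0.28), and Fkbp6 fell by 0.65 ± 0.07 on the log2 scale.

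The pathway acts on long precursors. Of 100 intergenic piRNA loci, named by chromosome and band, 99 were tested, 98 rose and none fell. No locus had a P18 library at or below a P14 library, where 35.3% of all tested features stood that way. Together the loci took 1.18, 1.20 and 0.938% of all counts at P18, against 0.265 and 0.208% at P14. Their median level was 86.9 CPM at P18 and 10.1 CPM at P14, and 93 loci exceeded 10 CPM at P18, against 50 at P14. The rise was broad: the single highest locus held 5.37, 5.67 and 5.53% of the locus total at P18, against 14.5 and 16.8% at P14, and the 10 highest held 32.1 to 33.4% at P18, against 46.3 and 50.4%. Of the 99 loci, 96 had a higher level at P14 than at P10, and 13 a higher level at P28 than at P18.

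Loci started from unequal levels. The locus 17-qA3.3-26735 had 718, 720 and 538 CPM at P18, against 351 and 310 CPM at P14 (0.99 ± 0.16, adjusted p = 2.99e-05). The locus 6-qF3-8009 had 647, 606 and 448 CPM at P18, against 55.6 and 42.4 CPM at P14 (3.53 ± 0.24). These were the loci with the most CPM at P18, the first already high at P14 and the second not. The largest folds were those of 8-qA4-332, with 36.4, 32.7 and 27.9 CPM at P18, against 0.771 and 0.351 CPM at P14 (5.80 ± 0.32), and of 8-qA4-155 (5.47 ± 0.34). The locus that did not pass was 7-qD2-40, with 130, 137 and 130 CPM at P18, against 119 and 115 CPM at P14 (0.17 ± 0.08, adjusted p = 0.0826). It had averaged 225 CPM at P10 and was, with 2-qE5-4, among the few loci lower at P14 than at P10. Among 108 genic loci, which carry the name of a gene, 72 rose (66.7%) and 5 fell (4.63%), with a median of 0.99. Of all tested features 30.2% rose and 24.9% fell. The deposited table does not say how reads shared by such a locus and its gene were assigned. pi-1700016M24Rik had 123, 120 and 75.1 CPM at P18, against 12.8 and 10.4 CPM at P14 (3.19 ± 0.22), and pi-Trim71 had 21.8, 19.4 and 28.9 CPM at P18, against 33.8 and 35.3 CPM at P14 (-0.56 ± 0.14). The other genic loci that fell were pi-Foxo3 (-0.49), pi-Snx30 (-0.48, called in 6 of 12 alternative fits), pi-Ndst1 (-0.42) and pi-Rab11fip4 (-0.32).

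**Figure D3:**
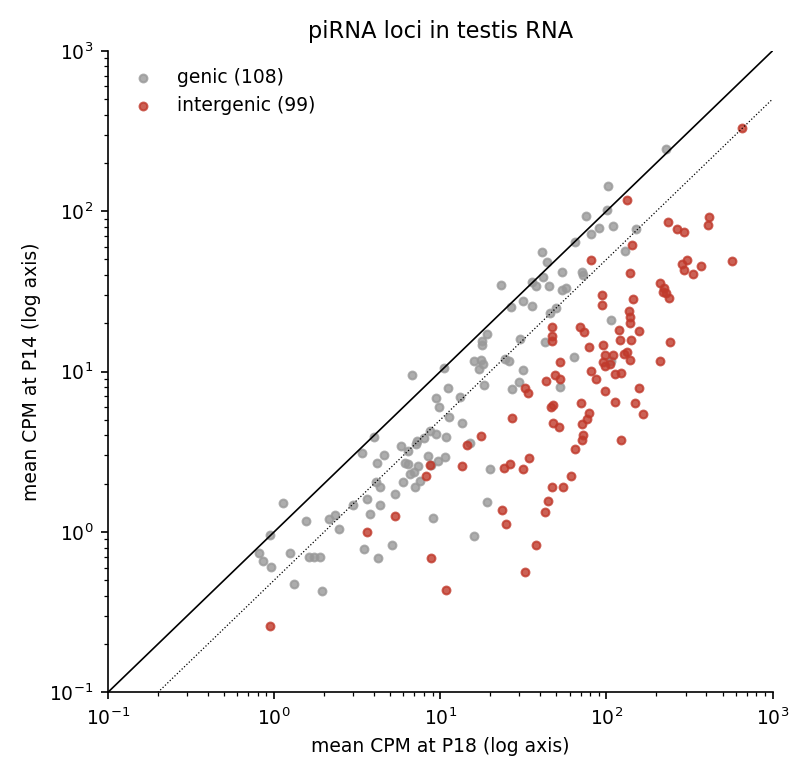
Mean CPM of each tested piRNA locus at P18 (horizontal, log axis, 3 libraries) and at P14 (vertical, log axis, 2 libraries), with intergenic loci in red and genic loci in grey. The solid line is equality and the dotted line a level 2 times as high at P18. Intergenic loci lie below the solid line, most of them below the dotted line, and genic loci straddle both.

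Small RNA libraries of the same ages, an independent assay of the piRNAs themselves, could not settle the matching change. Of their counts 60.9, 59.3 and 53.6% fell in intergenic loci at P18, against 22.0 and 75.5% at P14, so that the P14 libraries lay on either side of the P18 libraries. The median log2 fold change of the 99 loci was 1.27, and none passed edgeR's adjusted test after the low-count filter (1.21% of 10405 tested features rose and 1.62% fell), while 14 had an unadjusted p below 0.05 and by DESeq2 2 fell. Without the filter the same edgeR test called 32 of the 99 loci as risen and none as fallen. Without the second P14 library 96 loci rose and 2 fell, with a median of 4.42, and without the first none was called and the median was 0.37. Depth was 19.4, 20.3 and 17.7 M counts at P18, against 5.01 and 9.89 M at P14.

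Spermatogonial genes fell in 17 of 25 cases (24.9% of all tested features fell) and rose in 1, with a median log2 fold change of -0.76. Their summed level was 949, 1046 and 1139 CPM at P18, against 1728 and 1765 CPM at P14. Stra8, the factor that starts meiosis under retinoic acid, had 47.4, 61.3 and 65.4 CPM at P18, against 139 and 145 CPM at P14 (-1.28 ± 0.17, adjusted p = 2.19e-06). Sall4, a factor of undifferentiated and differentiating spermatogonia, had 25.1, 25.8 and 34.9 CPM at P18, against 56.4 and 61.4 CPM at P14 (-1.03 ± 0.12). Crabp1, a retinoic acid binding protein, had 16.4, 17.1 and 18.3 CPM at P18, against 47.1 CPM in both P14 libraries. Upp1, a uridine phosphorylase, fell by 1.76 ± 0.24 on the log2 scale. In all of these the P18 libraries lay below both P14 libraries, as they did for 34% of all tested features. Markers of the stem cell pool differed among themselves. Ret, the signalling receptor for GDNF, fell by 0.71 ± 0.17 on the log2 scale. Gfra1, its co-receptor, had 14.6, 10.4 and 13.9 CPM at P18, against 15.9 and 15.5 CPM at P14 (adjusted p = 0.213), and Zbtb16 had a log2 fold change of -0.36 (adjusted p = 0.0599) and was called in 5 of 12 alternative fits. Lhx1 and Nanos2, at under 1 CPM in every library, had log2 fold changes of -1.43 and -1.0 (adjusted p = 0.0762 and 0.111), and Lhx1 fell without P18 library 3. Id4 rose, with 75.8, 68.9 and 47.3 CPM at P18, against 35.6 and 30.9 CPM at P14 (0.94 ± 0.17). Id4 is used as a stem cell marker, and it averaged 9.75 CPM at P10 and 50.8 CPM at P28.

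Among somatic cell types, Sertoli and peritubular genes fell more often than they rose. Leydig, leukocyte and endothelial genes did not with TMM. With library totals they did, as did all tested features together, of which 6493 fell and 3793 rose. Of 22 Sertoli cell genes 13 fell (59.1%, against 24.9% of all tested features) and 1 rose (median -0.55). With library totals 17 fell and none rose. Amh, the anti-Müllerian hormone of immature Sertoli cells, had 33.8, 37.5 and 35.9 CPM at P18, against 77.2 and 84.2 CPM at P14 (-1.17 ± 0.17, adjusted p = 7.61e-06). Sox9, the Sertoli cell fate factor, had 61.2, 60.3 and 72.0 CPM at P18, against 119 and 126 CPM at P14 (-0.92 ± 0.11). Clu, a major secreted protein, lost more CPM than any other feature, with 2080, 2124 and 2331 CPM at P18, against 2985 and 3065 CPM at P14 (-0.47 ± 0.08). The member that rose was the X-linked Tsx, with 50.6, 73.1 and 69.0 CPM at P18, against 45.3 and 44.1 CPM at P14 (0.53 ± 0.21, adjusted p = 0.0416, called in 4 of 12 alternative fits).

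Peritubular and stromal genes fell in 9 of 14 cases (64.3%, against 24.9% of all tested features) and rose in 1 (7.14%, against 30.2%). Tagln, of the contractile myoid cells, had 53.4, 53.4 and 57.1 CPM at P18, against 92.4 and 95.5 CPM at P14 (-0.78 ± 0.08). Myh11, a smooth muscle myosin, rose by 0.22 ± 0.08 with TMM (called in 3 of 12 alternative fits) and had a log2 fold change of -0.03 with library totals. Collagen RNA differed between the P14 libraries, with 880, 800 and 999 CPM of Col3a1 at P18, against 1786 and 1105 CPM at P14 (-0.69 ± 0.22, adjusted p = 0.0105). Leydig cell genes had 3 rises and 3 falls among 14 (21.4% each, against 30.2% and 24.9% of all tested features), with a median of 0.33. With library totals 1 Leydig cell gene rose and 5 fell, and the median was 0.09. Star, which brings cholesterol to the steroid enzymes, had 106, 75.7 and 44.4 CPM at P18, against 33.5 and 29.3 CPM at P14 (1.25 ± 0.51, adjusted p = 0.0460, called in 5 of 12 alternative fits), and Cyp17a1 had 73.7, 176 and 76.4 CPM at P18, against 56.1 and 37.6 CPM at P14 (adjusted p = 0.0581). Libraries of one age differed over 2-fold in both genes. Leukocyte genes rose in 2 of 12 cases (16.7%) and endothelial genes in 1 of 9 (11.1%), against 30.2% of all tested features. None of either list fell. With library totals none of the leukocyte genes rose and 2 fell, and 1 of the endothelial genes rose and 5 fell. None of the 5 tested red blood cell and adipose genes passed.

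**Figure D4:**
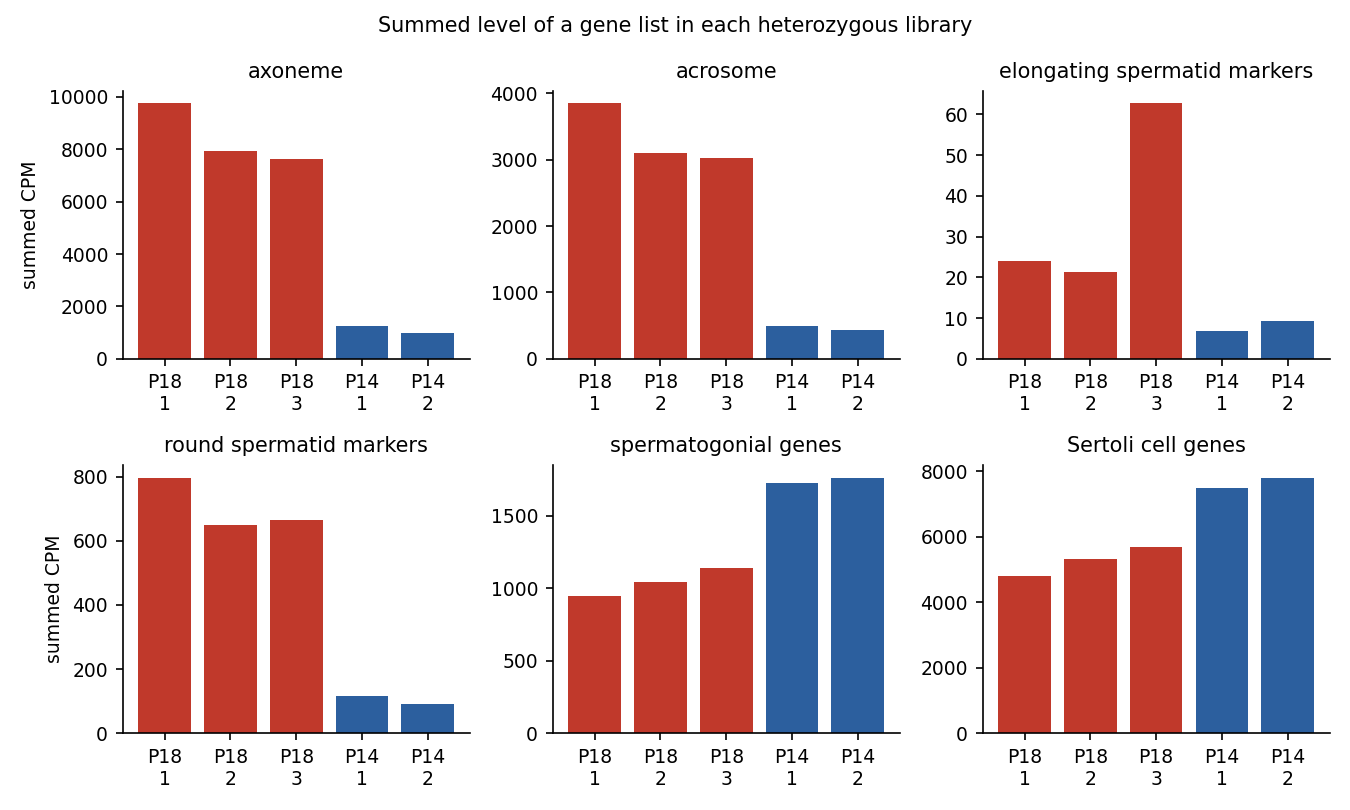
Summed CPM of 6 gene lists in each heterozygous library (bars from 0, P18 libraries 1 to 3 in red, P14 libraries 1 and 2 in blue). The axoneme, acrosome and round spermatid sums are several times higher at P18 in every library, the elongating spermatid sum of 62.7 CPM in library 3 stands apart from 24 and 21.2 CPM, and the spermatogonial and Sertoli cell sums are lower in every P18 library.

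Round spermatid markers summed to 798, 649 and 665 CPM at P18, against 116 and 92.2 CPM at P14, which is 15.6% of their sum at P28. Several of these markers are also transcribed in pachytene cells, and 10 of 12 rose, but 6 without P18 library 3. Elongating spermatid markers rose in 8 of 12 cases (median 3.70), and in 7 without library 3 (median 2.29). Hils1, a spermatid linker histone, had 1.15, 1.58 and 6.18 CPM at P18, against 0.0856 and 0 CPM at P14.

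Genes of the X chromosome moved apart from those of every autosome. Of 656 tested X-linked genes 7.16% rose and 48.9% fell, with a median log2 fold change of -0.45. On the 19 autosomes 25.1 to 34.5% rose and 21.2 to 26.2% fell, and medians ran from -0.04 to 0.09. Over all autosomes, library totals gave 3573 rises and 6067 falls, against 4691 and 3722 with TMM. With library totals 398 X-linked genes fell, against 321 with TMM, and 41 rose, against 47. Summed over the chromosome, X-linked RNA was 18986, 20389 and 21757 CPM at P18, against 27619 and 27860 CPM at P14. Library 3 was the highest P18 library for 409 of the 656 genes. Without it 25 rose in place of 47, and 14 rose with only the libraries compared. Maged1, a MAGE family protein that is broadly expressed, lost the most CPM on the X, with 690, 715 and 732 CPM at P18, against 1180 and 1197 CPM at P14 (-0.74 ± 0.08). Among the X-linked genes that rose, singled out here after their values were seen, Tsga8, a nuclear protein of spermatids, had 8.87, 4.87 and 15.7 CPM at P18, against 1.03 and 0.264 CPM at P14 (3.92 ± 0.47). Trpc5os had 19.7, 32.8 and 35.6 CPM at P18, against 8.99 and 6.85 CPM at P14, but lies opposite Trpc5, and reads of the 2 strands cannot be told apart in these unstranded libraries. Of 8 tested Y-linked genes 3 fell (37.5%, against 24.9% of all tested features) and none rose.

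**Figure D5:**
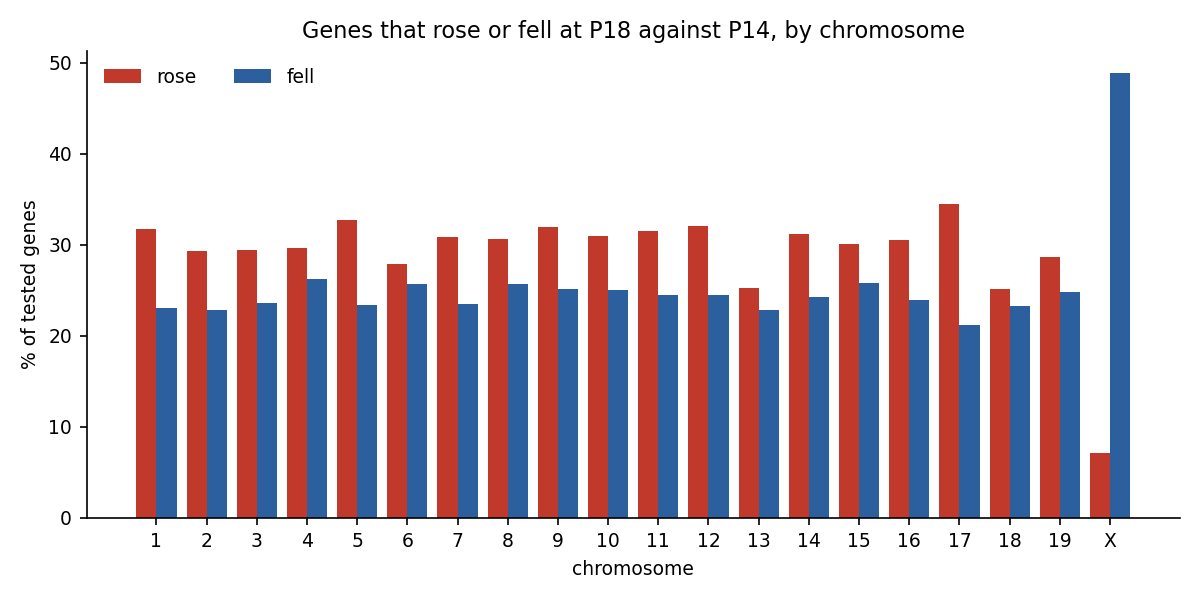
Share of the tested genes of each chromosome (vertical axis, %) that rose or fell at P18 against P14 (edgeR, adjusted p below 0.05). With TMM, as plotted, the red bar (rose) is the taller on every autosome, whereas on the X 7.16% rose and 48.9% fell.

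Several X-linked housekeeping genes have an autosomal copy, often a retrogene, that is used while the X is silent. Of 10 tested copies 9 rose (90%, against 30.5% of autosomal features) and none fell. Of 11 X-linked parents 8 fell (72.7%, against 48.9% of all tested X-linked genes) and none rose (7.16% of all tested X-linked genes). Pgk2, the testis phosphoglycerate kinase on chromosome 17, had 168, 131 and 154 CPM at P18, against 5.57 and 3.43 CPM at P14, while its parent Pgk1 had 1.48, 1.98 and 2.45 CPM, against 3.34 and 3.16 CPM (-0.69 ± 0.26, adjusted p = 0.0317, called in 5 of 12 alternative fits). Cetn1, a centrin on chromosome 18, had 195, 189 and 229 CPM at P18, against 19.6 and 13.4 CPM at P14 (3.63 ± 0.25), and its parent Cetn2 fell by 0.78 ± 0.14 on the log2 scale. Gk2, a glycerol kinase, rose by 3.58 ± 0.20, and its parent Gyk had a log2 fold change of -0.28 (adjusted p = 0.350). Other pairs moved by less: Rpl39l rose by 1.38 and its parent Rpl39 fell by 0.97 (called in 7 of 12 alternative fits), Pdha2 rose by 1.25 and Pdha1 fell by 0.54, and Utp14b rose by 0.63 and Utp14a fell by 0.56, all on the log2 scale. Rbmxl2 rose by 0.26 (called in 7 of 12 alternative fits, with log2 fold change 0.02 under library totals), while its parent Rbmx had -0.05 (adjusted p = 0.758). For Rpl10l and Rpl10 the sequences are near-identical, and their split is uncertain. Under library totals 7 copies rose in place of 9. Zfa-ps, which rose by 0.49 with TMM (adjusted p = 0.0453), had 0.24 with library totals (adjusted p = 0.293).

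Some features appeared between the ages. Of those with 0 counts in both P14 libraries, 226 had counts in all 3 P18 libraries, and 52 of these had 30 or more counts in all. In reverse, 244 features had counts in both P14 libraries and none at P18, and none of these reached 30 counts. Features absent at P14 were highest in P18 library 3 in 128 cases, in library 1 in 67 and in library 2 in 31. The most abundant, 1700025F22Rik, had 25.3, 20.5 and 23.0 CPM at P18, at least 175-fold higher than at P14, and Pcdha2, a protocadherin of the clustered alpha group, had 14.8, 9.75 and 13.3 CPM, at least 96.0-fold higher. Both were even over the P18 libraries. Ddi1 and Plcz1, the sperm phospholipase that triggers calcium waves in the egg, were both at least 35.2-fold higher, with 2.79, 1.98 and 8.16 CPM and 2.13, 2.11 and 8.51 CPM at P18, and both were highest in library 3. Without it their bounds were 18.0 and 16.3.

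Among the falls beyond 2-fold, AI848285 had 4.10, 6.19 and 7.11 CPM at P18, against 36.0 and 39.6 CPM at P14 (-2.67 ± 0.20, adjusted p = 9.76e-10). H19, an imprinted noncoding RNA, had 11.3, 12.1 and 13.9 CPM at P18, against 50.9 and 36.6 CPM at P14 (-1.81 ± 0.19). Nedd9, a scaffold of integrin signalling, fell by 1.79 ± 0.17 and Pdlim4, a LIM-domain protein of the actin skeleton, by 1.85 ± 0.18 on the log2 scale. All 4 were several times higher again at P10, with means of 220, 225, 161 and 106 CPM. Abundant housekeeping RNAs lost ground by less: Actb had 693, 667 and 726 CPM at P18, against 1211 and 1284 CPM at P14 (-0.84 ± 0.09), and Hsp90ab1, a cytosolic chaperone, fell by 0.71 ± 0.07 on the log2 scale. Among 83 tested cytosolic ribosomal protein genes 37 fell (44.6%, against 24.9% of all tested features) and 5 rose (6.02%, against 30.2%). Their median was -0.36, and with library totals 47 fell and 2 rose.

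The step in knockout testes was set against the step in heterozygotes, in a test that shares the heterozygous libraries with the comparison above. Of 16334 features, 7 had a higher step (0.0429%) and 13 a lower step (0.0796%) in knockouts, and 1065 had an unadjusted p below 0.05. Intergenic piRNA loci made up 10 of these 20 features. Dnah17 was the 1 axoneme gene among them, with a knockout step higher by 1.45 ± 0.28 on the log2 scale. The feature with the smallest p was the locus 17-qA3.3-26735, at 65.5, 66.9 and 75.6 CPM in P18 knockouts and 5.29 and 1.59 CPM in P14 knockouts, with a step higher by 3.40 ± 0.30. Its heterozygous means were 658 CPM at P18 and 330 CPM at P14, so its level was lower in knockouts at both ages.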

How the data were processed

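Poly(A) RNA of whole testes was sequenced from Nextera libraries, which keep no strand, per the labels' protocols. The authors deposited raw counts per gene and piRNA locus in 1 table. Tools named in the submitters' processing notes are TopHat2 2.1, cutadapt 1.8.1, Cufflinks, and Subread 1.4.6-p3 with its counter featureCounts, and the build is mm10. How reads shared by overlapping features were assigned is not given in the sources used here. The deposited small RNA table, also raw counts, was used for the piRNA loci.

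Counts were fitted with edgeR 4.0.16 (limma 3.58.1, R 4.3.3): filterByExpr, TMM scaling, and a quasi-likelihood fit over all 20 testis libraries, with p-values adjusted by Benjamini-Hochberg over 16334 features. The glmTreat test used a 2-fold threshold, and the interaction set the knockout step against the heterozygous step. DESeq2 1.42.0, other scalings, no filter, other sample sets, a replicate block and leaving out each replicate were alternatives. The fits were tested on simulated data. A lower bound of fold uses a floor of 3 counts over the P14 group, and such bounds cover counting error only; leaving P18 library 3 out of them was chosen after seeing the data.

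Genes were named by rule: the 10 of smallest p beyond 2-fold in each direction with a mean of at least 10 CPM, the 10 largest gains and losses, up to 5 leading members of each list and 3 in the other direction, defining markers, leading piRNA loci, features at 0 in one age, the 5 leading interaction features each way, and retrogene pairs. Others, such as members that did not pass, were chosen after their values were seen. The libraries, lists and rules were chosen with earlier results of these data known. Whether replicate numbers pair the ages could not be settled. Deviations of same-numbered libraries from their group means had correlations of 0.106 and -0.031. The deviations of the 2 P14 libraries mirror each other, so this check cannot exclude a shared batch.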

Additional observations from a re-analysis of the deposited data

Results flagged for a closer look

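The features below had an age step in knockout testes that differed from the step in heterozygotes, by edgeR's interaction test with Benjamini-Hochberg adjustment over all tested features (3 P18 and 2 P14 libraries of each genotype). Locus 17-qA3.3-26735 had a difference of 3.40 ± 0.30 (adjusted p = 8.55e-06), with a heterozygous log2 fold change of 0.99. Its knockout means of 69.3 CPM at P18 and 3.44 CPM at P14 lay below the heterozygous means of 658 and 330 CPM. Ptchd3 had 503, 744 and 667 CPM in P18 knockouts and 106 and 60.9 CPM in P14 knockouts, and 282, 260 and 240 CPM in P18 heterozygotes and 137 and 94.7 CPM in P14 heterozygotes. The difference of its log2 steps was 1.76 ± 0.26 (adjusted p = 4.42e-03). Locus 17-qA3.3-27363 had a difference of 2.17 ± 0.32 (adjusted p = 0.0128), with a heterozygous log2 fold change of 1.76. Zfa-ps had a difference of 1.71 ± 0.28 (adjusted p = 0.014), with a heterozygous log2 fold change of 0.49. Lrrc61 had a difference of 1.30 ± 0.22 (adjusted p = 0.0151), with a heterozygous log2 fold change of 1.4. Dnah17 had a difference of 1.45 ± 0.28 (adjusted p = 0.0365), with a heterozygous log2 fold change of 5.10. Locus 10-qB4-6488 had 4.00, 6.08 and 3.53 CPM in P18 knockouts and 5.2 and 4.35 CPM in P14 knockouts, and 141, 148 and 93.7 CPM in P18 heterozygotes and 14 and 11.9 CPM in P14 heterozygotes. The difference of its log2 steps was -3.37 ± 0.34 (adjusted p = 4.06e-05). Locus 15-qE1-1119 had a difference of -2.86 ± 0.34 (adjusted p = 3.38e-04), with a heterozygous log2 fold change of 3.25. Locus 18-qE1-36451 had a difference of -2.80 ± 0.40 (adjusted p = 3.72e-03), with a heterozygous log2 fold change of 3.55. Taf4b had 137, 147 and 154 CPM in P18 knockouts and 185 and 177 CPM in P14 knockouts, and 129, 132 and 130 CPM in P18 heterozygotes and 98.3 and 96.9 CPM in P14 heterozygotes. The difference of its log2 steps was -0.73 ± 0.11 (adjusted p = 5.48e-03). Locus 6-qD1-2831 had a difference of -1.25 ± 0.22 (adjusted p = 0.0279), with a heterozygous log2 fold change of 2.99. The locus 7-qF3-3125 (1.39) also had a step higher in knockouts. Further step differences, lower in knockouts, were those of Kif7 (-0.90), Plk1 (-0.91), 10-qC1-1527 (-3.07), 9-qC-10667 (-1.66), Adap1 (-1.39), 7-qD1-9417 (-4.0), Filip1 (-1.37), Ephb1 (-1.21). With 1 test per feature adjusted over the table, 17 of the 20 features also rose between the ages in heterozygotes, against 30.2% of all tested features. The interaction contains the heterozygous step, so a large heterozygous rise favours a lower call and works against a higher one. The 17 hold features of both kinds, and as the tests share libraries their number is no separate result.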

How the results depend on the processing

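Of 545 named features tested 421 were called, and 344 of these kept their call under every alternative run. The single reversal among named features was that of Myh11, at -0.03 with library totals. With library totals 6493 features fell, against 4061 with TMM. Upper-quartile scaling gave 4102 rises and 5801 falls (41.4% of calls rose), and DESeq2 gave 4806 and 3552. The replicate block gave 4754 rises and 3956 falls, and 1813 and 42 beyond 2-fold, and 20 lower interaction features in place of 13. Leaving out each replicate in turn gave 4132 to 4760 rises and 3145 to 3909 falls. With a 1.5-fold threshold 2772 features rose and 515 fell. Falls beyond 2-fold, 41 in all, numbered 91 with upper-quartile scaling, 150 with library totals, 11 with DESeq2, and 26 to 59 with a replicate left out.

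The interaction rests on few libraries. Its 7 higher and 13 lower features became 26 and 30 without the filter, and 1 and 2 with only the libraries compared, and DESeq2 gave 31 lower. With a replicate left out the higher features numbered 2 to 44 (44 without P14 knockout library 1) and the lower 3 to 24 (24 without P18 heterozygous library 3). In small RNA, 126 features rose and 169 fell. Rises numbered 12 with library totals, 773 without the filter and 340 with DESeq2. Falls numbered 463 with upper-quartile scaling, 5488 with library totals and 407 without the filter. Leaving out a numbered small RNA library, an alternative chosen after seeing the data, gave 4 to 1635 rises and 38 to 1091 falls. The cause of these shifts was not tested. No paired analysis was possible for small RNA because one P18 column carries no number. Depth limits the low genes: at P14 1 count is 0.0856 or 0.0879 CPM.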

Other observations

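Genes with clone-style names (Riken and Gm symbols), most of them little described, rose more often than other genes. Of 1459 tested, 656 rose and 112 fell, with 401 rising beyond 2-fold and a median log2 fold change of 0.87. Among 14668 genes with other names 4110 rose and 3944 fell, and the median was -0.04. With library totals the medians were 0.65 and -0.28.

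Of 20 listed spermatid genes of the X and Y chromosomes, which are transcribed again after meiosis, 10 were tested. Slx, Slxl1, Ssty1, Ssty2, Sly, Cypt1, H2afb2, H2afb3 and Rbmy did not pass the low-count filter. Of the 10, 5 rose (50%, against 30.2% of all tested features) and 1 fell (10%, against 24.9%). Their summed level averaged 119 CPM at P18 and 136 CPM at P14. P18 library 3 was the highest for 9 of 10. Without that library 2 rose, and 1 rose with only the libraries compared.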
